A study of Mus musculus with 10 samples.

Results

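The genes described here are 38 that encode proteins of DNA replication, of nucleotide synthesis and of the serine and one-carbon pathways that feed it, out of 34162 gene names in an RNA sequencing table of mouse melanoma cells. They were taken by name, and the estimated counts of all transcript rows with the same gene name were added together. All 38 names were present, on 178 transcript rows, and 37 had enough counts to be among the 16805 genes tested. Phgdh alone fell below the filter on low counts.

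The cells came from tumours of mice of the strain C57BL/6:SV129 and were sorted fresh by flow cytometry into c-Myc-high cells, which were GFP+ (written GPF+ in the status label), and c-Myc-low cells, which were GFP-. Metastatic cells came from lymph nodes and primary cells from skin. There were 3 metastatic c-Myc-high, 3 metastatic c-Myc-low, 2 primary c-Myc-high and 2 primary c-Myc-low libraries, each amplified from total RNA. The labels name neither the tumour model nor the construct behind GFP, give no age, and do not tie replicates to animals, so the p-values below reflect the spread among these libraries, which may be technical. Where several values are given for a group, they stand in the order of the replicate numbers in the labels.

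Before a cell divides, the MCM proteins are loaded onto DNA as a ring-shaped helicase, with the help of CDC6 and CDT1, and are switched on by CDC45 and the GINS proteins. DNA polymerase alpha and its primase then start each new strand, PCNA holds the later polymerases on DNA, and FEN1 and DNA ligase 1 finish the lagging strand. The building blocks come from purine and pyrimidine synthesis, ribonucleotide reductase and thymidylate synthase, which draw one-carbon units made from serine, and many of these genes are known targets of E2F and of MYC proteins.

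Total estimated counts lay between 1603012 and 6844328 per library, and the common biological coefficient of variation was 0.876. Primary c-Myc-high replicate 2, the shallowest library, had 16 of the 38 genes under 3 counts, and metastatic c-Myc-high replicate 3, the next shallowest, had 5, while no other library had more than 1. Levels in CPM are estimated counts set to a common library size with TMM factors, which ranged from 0.671 to 1.33. Keratinocyte and leukocyte markers followed the site. The summed level of 12 keratinocyte genes lay between 27.4 and 453 CPM in the 6 metastatic libraries and between 21604 and 94098 CPM in the 4 primary ones. The summed level of 10 leukocyte genes lay between 433 and 5466 CPM in metastatic libraries, against 34.3 to 152 CPM in primary ones. The melanocyte genes summed to 599.8 to 20661 CPM, so pigment cell transcripts were found in every library, and Myc itself lay between 101 and 318 CPM in 9 libraries and at 997 CPM in primary c-Myc-high replicate 1. Myc levels of the c-Myc classes overlapped at both sites. Salivary gland genes summed to 203330 and 61465 CPM in replicates 1 and 3 of the metastatic c-Myc-high group and to at most 601 CPM elsewhere. In bulk samples, fewer cells of a type and less RNA per cell cannot be told apart. The part that these other cells had in the results below was not tested.

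A gene is said to be called where its adjusted p over all genes tested was under 0.05. Few of the 37 genes were called, and the clearest difference was in Prim1, the catalytic subunit of primase, which was lower in metastatic than in primary cells. Its promoter is printed below, with those of 3 MCM genes and of the neighbouring purine genes Ppat and Paics, in which the motifs counted here were found. Each window runs from 250 bases before to 50 bases after the RefSeq start site (GRCm38.p6, the same assembly as mm10), read 5′ to 3′ along the gene, and capitals mark matches to an E2F-type motif (TTTCCCGC, TTTGGCGC, TTTCGCGC or TTTGCCGC) or to the E-box CACGTG, on either strand. In Mcm5 and in Mcm6 a match on one strand overlaps a match on the other, so that their capitals run together.
Prim1 promoter, chr10:128014965-128015264, plus strand: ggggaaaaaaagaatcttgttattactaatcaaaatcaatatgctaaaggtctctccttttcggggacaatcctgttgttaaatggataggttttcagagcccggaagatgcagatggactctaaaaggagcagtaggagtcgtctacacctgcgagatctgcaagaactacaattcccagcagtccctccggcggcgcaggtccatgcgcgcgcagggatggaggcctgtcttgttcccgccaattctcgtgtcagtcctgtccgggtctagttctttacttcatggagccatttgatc
Mcm3 promoter, chr1:20820263-20820562, minus strand: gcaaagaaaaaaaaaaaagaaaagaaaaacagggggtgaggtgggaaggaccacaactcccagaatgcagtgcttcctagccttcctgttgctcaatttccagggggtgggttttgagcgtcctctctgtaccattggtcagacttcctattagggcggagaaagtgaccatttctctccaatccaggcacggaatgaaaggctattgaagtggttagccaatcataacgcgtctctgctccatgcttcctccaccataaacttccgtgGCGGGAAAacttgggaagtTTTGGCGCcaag
Mcm5 promoter, chr8:75109259-75109558, plus strand: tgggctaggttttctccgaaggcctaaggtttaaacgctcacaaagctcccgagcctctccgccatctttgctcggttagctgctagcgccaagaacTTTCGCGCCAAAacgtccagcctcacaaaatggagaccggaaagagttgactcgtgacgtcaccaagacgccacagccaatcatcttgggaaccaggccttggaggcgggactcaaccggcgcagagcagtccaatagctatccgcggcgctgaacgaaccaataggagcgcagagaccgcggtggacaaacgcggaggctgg
Mcm6 promoter, chr1:128359656-128359955, minus strand: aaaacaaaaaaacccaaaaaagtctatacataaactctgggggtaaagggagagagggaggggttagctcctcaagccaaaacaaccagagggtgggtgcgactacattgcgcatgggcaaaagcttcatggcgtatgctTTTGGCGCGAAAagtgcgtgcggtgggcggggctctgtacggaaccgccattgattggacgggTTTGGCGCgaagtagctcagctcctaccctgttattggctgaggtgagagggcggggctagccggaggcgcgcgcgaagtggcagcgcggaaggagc
Ppat promoter, chr5:76951529-76951828, minus strand: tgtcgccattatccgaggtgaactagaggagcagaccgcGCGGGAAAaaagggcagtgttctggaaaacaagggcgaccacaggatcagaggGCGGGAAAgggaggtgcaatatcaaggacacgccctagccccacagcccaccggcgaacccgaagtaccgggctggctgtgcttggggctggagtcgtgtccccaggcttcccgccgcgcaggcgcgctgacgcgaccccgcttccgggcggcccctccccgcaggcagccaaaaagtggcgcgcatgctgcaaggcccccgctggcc
Paics promoter, chr5:76951052-76951351, plus strand: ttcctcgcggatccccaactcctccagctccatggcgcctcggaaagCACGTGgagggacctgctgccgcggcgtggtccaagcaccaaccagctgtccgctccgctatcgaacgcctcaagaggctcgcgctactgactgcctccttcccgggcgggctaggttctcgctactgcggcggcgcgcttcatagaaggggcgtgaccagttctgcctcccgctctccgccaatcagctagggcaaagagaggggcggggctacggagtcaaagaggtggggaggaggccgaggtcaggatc

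RefSeq windows were available for 34 of the 38 genes. The E2F-type motif was found in 9 of the 34 genes (26.5%), against 2.6% of 27025 genes with a window. These were Cdc6, Cdt1, Lig1, Mcm3, Mcm5, Mcm6, Mcm7, Pola1 and Ppat, so 4 of the 5 MCM genes with a window held it and all but Ppat act in replication. The E-box, the sequence that MYC proteins bind with MAX, was found in 6 of the 34 (17.6%), against 8.09% of all genes, and these were Atic, Fen1, Impdh2, Lig1, Paics and Tyms. Lig1 held both motifs, in different windows, and the Prim1 window held neither. Counted from the start site, the E2F-type matches begin at 20 and 39 in Mcm3, at -153 and -149 in Mcm5, at -110, -106 and -47 in Mcm6 and at -211 and -158 in Ppat, and the E-box of Paics begins at -203. A match is a run of letters and not a measured binding site.

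Prim1, which lays down the RNA primers that DNA polymerase alpha extends, lies at chr10:128015168-128030037 on the plus strand (mm10, GENCODE M21). It had 18.6, 22.8 and 12.8 CPM in metastatic c-Myc-high libraries, against 127 and 417 CPM in primary c-Myc-high ones. In c-Myc-low cells it had 10.1, 19.8 and 14.5 CPM in the metastatic libraries and 26.7 and 42.8 CPM in the primary ones. All 6 metastatic libraries were below all 4 primary libraries, and both primary c-Myc-high libraries were above every other library. In c-Myc-high cells the log2 fold change, metastatic over primary, was -3.90 (SE 0.758, 95% interval -5.55 to -2.25), and it passed edgeR's quasi-likelihood test (adjusted p = 0.0183). Averaged over both c-Myc classes it was -2.57 (SE 0.515, adjusted p = 0.00792, edgeR). Keratinocyte genes, higher in all 4 primary libraries, separated the libraries in the same way.

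In c-Myc-high cells Prim1 passed in 14 of 22 alternative settings. All 22 kept its direction, with log2 fold changes from -4.74 to -2.58 and adjusted p between 4.61e-06 and 0.147. The main test is 1 fit over the 4 groups, which were unequally spread. The SD of log2(CPM + 1) of Prim1 was 1.21 in primary c-Myc-high cells and 0.400 to 0.468 in the other groups. With only the 2 c-Myc-high groups compared, Prim1 did not pass (adjusted p = 0.135, edgeR). It did not pass with limma-voom either (adjusted p = 0.147). Without primary c-Myc-high replicate 2 the log2 fold change was -2.75 (adjusted p = 0.0457, edgeR), and without the 2 shallowest libraries it was -2.58 (adjusted p = 0.0337). Without metastatic c-Myc-high replicate 1 the adjusted p was 0.0591, and without both metastatic c-Myc-high libraries rich in salivary transcripts it was 0.113. In c-Myc-low cells alone the log2 fold change was -1.23 (95% interval -2.78 to 0.33), which did not pass (adjusted p = 0.508, edgeR). In primary tumours the log2 fold change, c-Myc-high over c-Myc-low, was 2.97 (SE 0.853, 95% interval 1.11 to 4.83) and did not pass edgeR's test (adjusted p = 0.419), while DESeq2 called it (adjusted p = 0.012). The c-Myc difference of Prim1 in metastases minus that in primary tumours was -2.68 (SE 1.05, adjusted p = 0.724, edgeR).

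Prim1 counts did not all stand on coding transcripts. A retained-intron transcript (ENSMUST00000138330) held 231 and 190 estimated counts in primary c-Myc-high cells, against 0 to 27.2 in the other 8 libraries, and another (ENSMUST00000133285) was listed at 0 in both and at 7.99 to 77.4 elsewhere. The 2 protein-coding rows, which have equal counts, together held 298 and 257 counts in those primary c-Myc-high libraries, against 10.8 to 103 in the others. Coding and retained-intron counts were therefore both highest there, and with protein-coding rows alone the log2 fold change in c-Myc-high cells was -4.04 (adjusted p = 0.0259, edgeR).

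**Figure D1:**
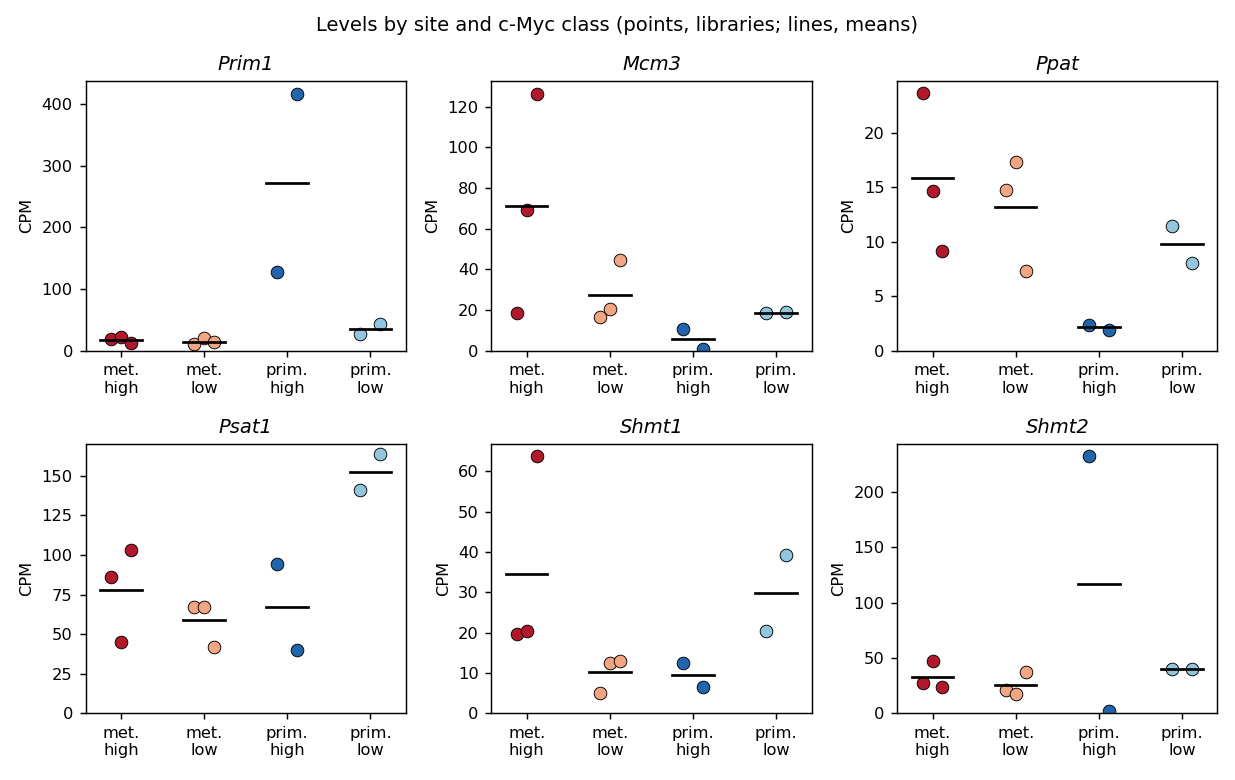
Levels in CPM (linear axis from 0) of Prim1, Mcm3, Ppat, Psat1, Shmt1 and Shmt2 in metastatic c-Myc-high, metastatic c-Myc-low, primary c-Myc-high and primary c-Myc-low libraries. Each point is a library and each line a group mean; Prim1 is at 127 and 417 CPM in primary c-Myc-high libraries and at most 22.8 CPM in metastatic ones, and Shmt2 is at 232 and 1.87 CPM in the pair of primary c-Myc-high libraries.

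Prim1 was the only member called in the c-Myc-high comparison of metastatic with primary cells, where 2.31% of all genes tested were called lower and 1.65% higher. A count of 1 lower and 0 higher of 37 is near that background. Without the 2 shallowest libraries, which leaves 1 primary c-Myc-high library whose spread is taken from the other groups, 8 members were called, all lower, where 6.96% of all genes were called lower. These were Prim1, Atic, Cdc6, Gins2, Pola1, Rrm1, Shmt2 and Tyms. Without metastatic c-Myc-high replicate 1 the count was 0 (1.84% of all genes), and without primary c-Myc-high replicate 2 it was 2, both lower (4.05% of all genes). At an unadjusted p under 0.05, 3 members were higher (16.3% of all genes) and 1 lower (9.96%). DESeq2 called 3 members (19.7% of all genes), with Mcm3 and Ppat higher beside Prim1. In CPM summed over rows, the 6 genes Mcm3, Mcm4, Tk1, Ppat, Paics and Shmt1 were higher in every metastatic than in every primary c-Myc-high library, against 16.5% of all genes. Prim1 alone was lower in every one, against 10.2%. In RPKM at least Mcm4 and Shmt1 overlapped between these groups. The median log2 fold change of the members was 0.21, beside 0.38 over all genes, and 19 of 37 were above 0. Without primary c-Myc-high replicate 1 the median of the members was 1.45. That setting leaves the shallowest library alone in its group, with 16 of the 38 genes under 3 counts. The value therefore cannot show a rise of the members.

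In c-Myc-low cells 0 members were called by edgeR between metastatic and primary libraries, where 0.375% of all genes were called higher and 1.74% lower. At an unadjusted p under 0.05 the count was 0 (9.12% of all genes were higher and 6.03% lower), and DESeq2 called 0 (10.2% of all genes), while limma-voom called 4 (23.5% of all genes), namely Mthfd1l higher and Psat1, Psph and Rrm2 lower. In CPM summed over rows, Mcm2, Cdt1, Atic, Impdh1 and Mthfd1l were higher in every metastatic c-Myc-low library than in both primary ones (25% of all genes were). On that scale 8 genes were lower in every one (20.1% were). The median log2 fold change of the members was -0.02, beside 0.10 over all genes. Averaged over the c-Myc classes, Prim1 was the only member called, where 8.13% of all genes were called higher and 5.65% lower. DESeq2 called 3 (23.8% of all genes), and at an unadjusted p under 0.05, 3 members were higher and 1 lower (20.3% and 10.1% of all genes). Without primary c-Myc-high replicate 2, edgeR called Prim1, Rrm1 and Shmt2 lower (5.82% of all genes), and without the 2 shallowest libraries 8 members, all lower (8.88%). Over the pooled libraries of each site, 0 members were higher without overlap (5.73% of all genes) and Prim1 alone was lower (5.06%). The site comparisons share libraries with this mean and are not separate evidence.

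When the c-Myc classes were compared, edgeR called 0 members, and 0% of all genes, in metastases, in primary tumours and in the mean of both sites. In metastases 1 member, Lig1, had an unadjusted p under 0.05 (3.05% of all genes were higher and 1.76% lower at that level), and DESeq2 (0.512% of all genes) and limma-voom (0%) called 0. In primary tumours 3 were higher and 1 lower at that level (4.29% and 7.33% of all genes), and DESeq2 called 1, Prim1 (2.42% of all genes). Without the 2 shallowest libraries 4 were called higher in primary tumours, namely Gins2, Impdh1, Mthfd1l and Tyms (2.7% of all genes were). In the mean of both sites 4 were higher and 1 lower (5.34% and 7.52% of all genes), and DESeq2 called 2, Prim1 and Lig1 (3.04% of all genes), and 0 were higher or lower without overlap (0.387% and 1.61%). The median log2 fold change of the members, c-Myc-high over c-Myc-low, was 0.35 in metastases, 0.33 in primary tumours and 0.28 in the mean, beside 0, -0.12 and -0.11 over all genes. In metastases 29 of 37 members were above 0, and 22 of the 37 turned sign on the RPKM scale. On the deposited RPKM scale, which divides by transcript length and sequencing depth, with a pseudocount of 0.1 these medians were -0.58, -0.64 and -0.68, beside -0.86, -0.76 and -0.82 over all genes. Without primary c-Myc-high replicate 1 the median in primary tumours was -1.24, with the shallowest library as the only c-Myc-high one there. The test of whether the c-Myc difference itself differed between sites called 0 members with edgeR (0% of all genes) and 0 with DESeq2 (0.506%), with 1 higher and 1 lower at an unadjusted p under 0.05 (4.74% and 2.1% of all genes).

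**Figure D2:**
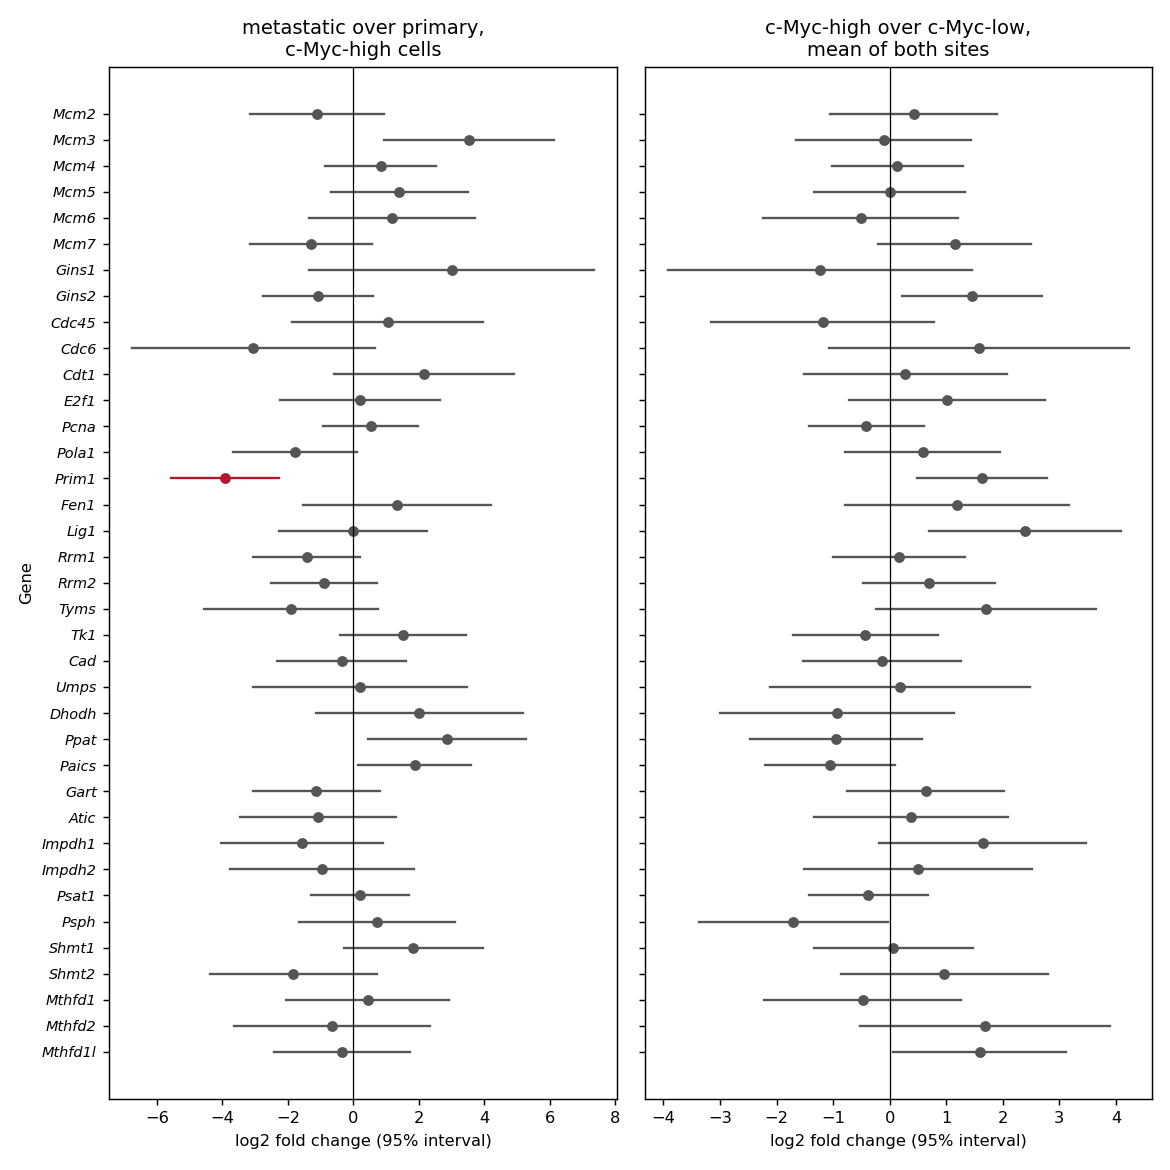
Log2 fold changes of the 37 tested genes with their 95% intervals, metastatic over primary in c-Myc-high cells (left) and c-Myc-high over c-Myc-low in the mean of both sites (right), on linear axes. Red marks an adjusted p under 0.05 (edgeR), reached by Prim1 alone, at -3.90 on the left; most other intervals cross 0.

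The helicase genes were the largest set, with 9 members. In c-Myc-high cells 6 of the 9 had a positive fold change, metastatic over primary, with a median of 1.06, and none was called. Mcm3, a subunit of the MCM ring, had 18.3, 69.3 and 126 CPM in metastatic c-Myc-high libraries, against 10.6 and 0.933 CPM in primary c-Myc-high ones. Mcm3 had 16.5, 20.6 and 44.7 CPM in metastatic c-Myc-low cells and 18.3 and 19.1 CPM in primary c-Myc-low cells. The c-Myc-high groups did not overlap for this gene, while the c-Myc-low groups did. Its log2 fold change in c-Myc-high cells was 3.53 (SE 1.19, 95% interval 0.94 to 6.12, adjusted p = 0.103, edgeR), and the lowest value, in primary replicate 2, was 1 count. Averaged over the c-Myc classes it was 2.04 (SE 0.775, adjusted p = 0.101, edgeR).

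The other MCM genes did not move as a block. Mcm7, another ring subunit, had 18.8, 35.5 and 26.1 CPM in metastatic c-Myc-high libraries and 104 and 26.1 CPM in primary c-Myc-high ones. It had 9.83, 14.2 and 34.8 CPM in metastatic c-Myc-low libraries and 16.3 and 20.2 CPM in primary c-Myc-low ones. Mcm7 and Mcm2 were highest in primary c-Myc-high replicate 1, Mcm4, Mcm5 and Mcm6 in metastatic c-Myc-high replicate 2, and Mcm3 in metastatic c-Myc-high replicate 3. Mcm7 overlaps Ap4m1 and Cops6 on the other strand, and the strandedness of the counting is not given in the sources used here.

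The 6 MCM proteins form the ring in equal numbers, so their transcripts were set side by side per length, as the ratio of the highest to the lowest RPKM in a library. That ratio was 3.22, 2.68 and 21.9 in the metastatic c-Myc-high libraries, and 2.19, 1.69 and 2.14 in the metastatic c-Myc-low ones. It was 17.3 and 73.2 in the primary c-Myc-high libraries, and 2.30 and 4.001 in the primary c-Myc-low ones. The largest ratio of the 5 c-Myc-low libraries was thus 4.001, and 3 of the 5 c-Myc-high libraries exceeded it. Among these 3 were the 2 shallowest libraries. In primary c-Myc-high replicate 2 the lowest gene rested on 1 count and the highest count of any MCM gene was 29, so that ratio is imprecise. In primary c-Myc-high replicate 1 the lowest count was 43.7 and in metastatic c-Myc-high replicate 3 it was 10.95. These 2 libraries stood apart in different genes, since Mcm7 led in the primary one and Mcm3 in the metastatic one. RPKM was summed over transcript rows, of which Mcm7 has 10 and each other MCM gene 1. A retained-intron row held 33.2% of Mcm7 counts. In metastatic c-Myc-high replicate 2, metastatic c-Myc-low replicate 3 and primary c-Myc-low replicate 1, Mcm7 had the highest RPKM but the lowest count. The part of these rows in the ratios was not tested.

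**Figure D3:**
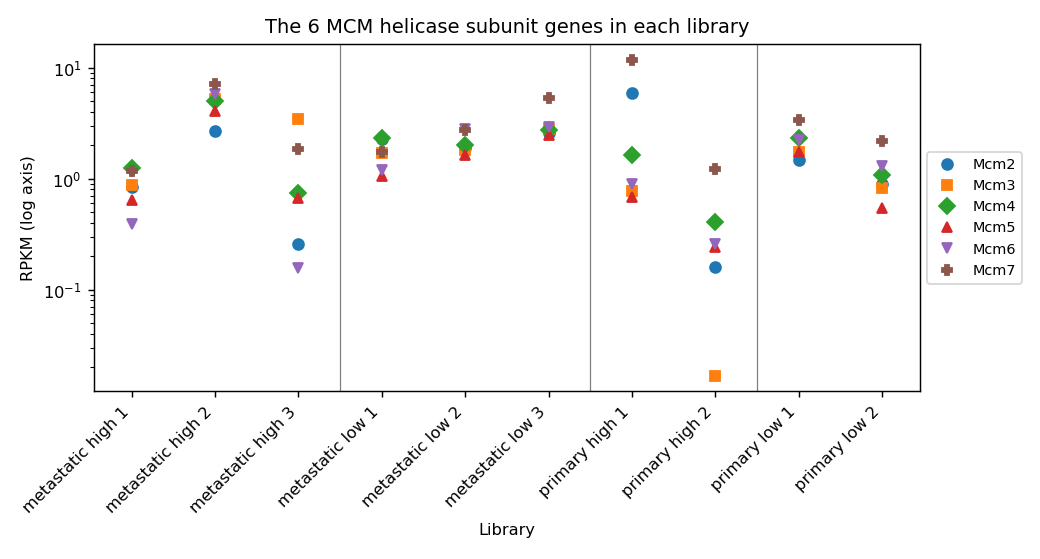
RPKM (log axis) of the genes for the 6 MCM helicase subunits in each of the 10 libraries. The 6 points lie within a factor of 4.001 in each c-Myc-low library and spread over factors of 21.9, 17.3 and 73.2 in metastatic c-Myc-high replicate 3 and primary c-Myc-high replicates 1 and 2.

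Gins2, a GINS subunit that holds the helicase together with CDC45, had 38.8, 61.3 and 111 CPM in metastatic c-Myc-high libraries and 45.05, 28.7 and 34.6 CPM in metastatic c-Myc-low ones. It had 245 and 51.3 CPM in primary c-Myc-high libraries, against 34.1 and 43.1 CPM in primary c-Myc-low ones, with no overlap between the primary groups. The log2 fold change in primary tumours, c-Myc-high over c-Myc-low, was 1.95 (SE 0.889, 95% interval 0.01 to 3.88, adjusted p = 0.427, edgeR). A retained-intron row held 75.3% of Gins2 counts over all libraries and its protein-coding row 21.2%. Gins2 overlaps Gse1 on the other strand. Its partner Gins1 stayed between 0 and 11.2 CPM, and Cdc45 between 0.511 and 7.60 CPM.

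The licensing genes were low and uneven. Cdt1, which loads the MCM ring, had 29.1, 38.3 and 4.09 CPM in metastatic c-Myc-high libraries and 8.55, 17.4 and 25.6 CPM in metastatic c-Myc-low ones. It had 9.12 and 0.933 CPM in primary c-Myc-high and 3.50 and 6.65 CPM in primary c-Myc-low libraries, so only metastatic c-Myc-high replicate 3 and metastatic c-Myc-low replicate 1 lay among the primary values. Averaged over the c-Myc classes, its log2 fold change, metastatic over primary, was 1.96 (SE 0.883, adjusted p = 0.156, edgeR). Cdc6, the other loader, had 59.0 CPM in primary c-Myc-high replicate 1 and was not detected in primary c-Myc-high replicate 2, where 3 counts would be 1.87 CPM before TMM scaling. Cdc6 had 1.88, 8.56 and 0 CPM in metastatic c-Myc-high, 3.06, 2.57 and 3.68 CPM in metastatic c-Myc-low and 4.46 and 3.18 CPM in primary c-Myc-low libraries. E2f1, a transcription factor that switches on S phase genes, lay between 1.44 and 16.9 CPM, with its highest value in metastatic c-Myc-high replicate 2.

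Among the genes that act at the fork, Lig1 had the highest mean of the 4 group means per length, 14.1 RPKM, although Prim1 was above it in primary c-Myc-high cells and Pcna in both c-Myc-low groups. It was at 22.3 ± 17.3 RPKM in metastatic c-Myc-high (SD, n = 3), 9.63 ± 2.81 in metastatic c-Myc-low (n = 3), 17.3 ± 4.14 in primary c-Myc-high (n = 2) and 7.29 ± 0.584 in primary c-Myc-low cells (n = 2). In scaled counts it had 41.4, 93.1 and 436 CPM in metastatic c-Myc-high libraries and 25.7, 25.3 and 59.9 CPM in metastatic c-Myc-low ones. Lig1 had 48.5 and 336 CPM in primary c-Myc-high libraries, against 24.8 and 46.8 CPM in primary c-Myc-low ones. Its c-Myc-high values overlapped the c-Myc-low ones in metastases and lay just above them in primary tumours. The log2 fold change in the mean of both sites was 2.39 (SE 0.778, 95% interval 0.69 to 4.09), which did not pass (adjusted p = 0.305, edgeR). DESeq2 called it (adjusted p = 0.0374).

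The transcript rows behind Lig1 were uneven. In metastatic c-Myc-high replicate 3, 848 of its 853 counts, and in primary c-Myc-high replicate 2 all but 0.08 of its 360 counts, stood on rows that GENCODE M21 does not list, mostly 4 rows with equal shares. Its protein-coding rows held 5.29 and 0.08 counts in those libraries, against 44.0 to 176 in the other 8. The 2 libraries with the highest Lig1 totals were therefore the 2 with the lowest coding counts. Over all 38 genes, protein-coding rows held 53.9% of the counts in metastatic c-Myc-high replicate 3 and 49.7% in primary c-Myc-high replicate 2, against 71.8% to 77.0% in the other libraries.

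**Figure D4:**
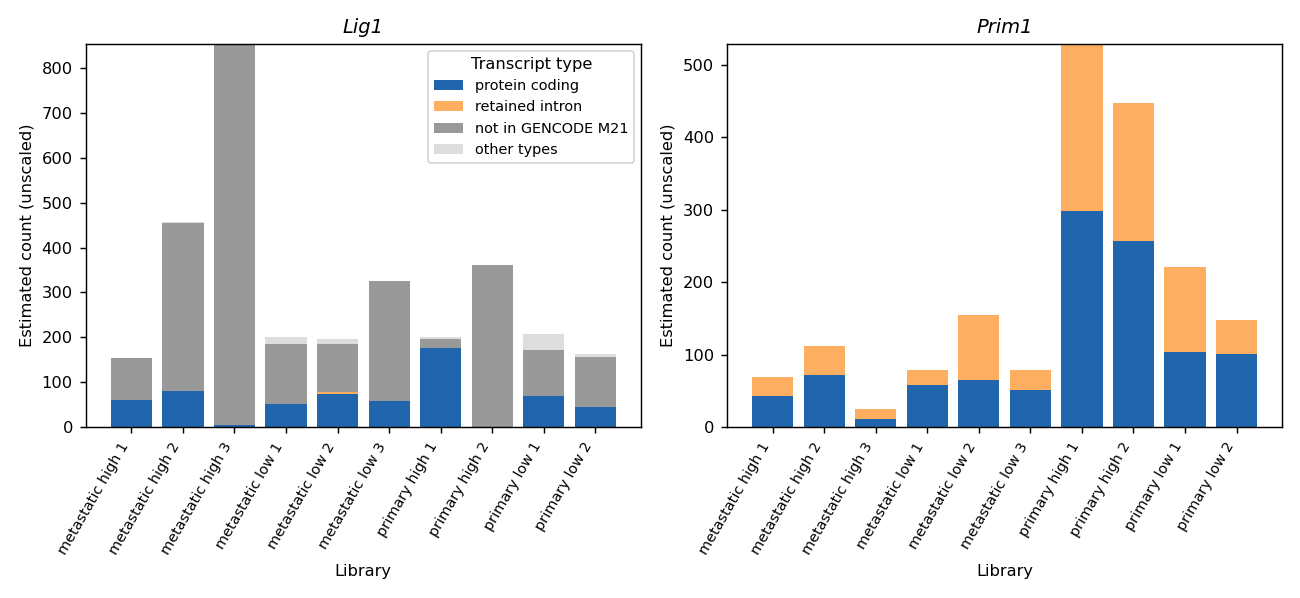
Estimated counts of Lig1 (left) and Prim1 (right) in each library, unscaled, stacked by the transcript type that GENCODE M21 gives to each row. Nearly all Lig1 counts of metastatic c-Myc-high replicate 3 and primary c-Myc-high replicate 2 stand on rows that M21 does not list, while Prim1 keeps 298 and 257 protein-coding counts in primary c-Myc-high replicates 1 and 2.

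Pcna, the sliding clamp, was the steadiest of the abundant genes. It had 34.7, 60.5 and 59.8 CPM in metastatic c-Myc-high, 40.3, 48.3 and 58.8 CPM in metastatic c-Myc-low, 34.3 and 37.3 CPM in primary c-Myc-high and 62.0 and 71.4 CPM in primary c-Myc-low libraries. All 10 values lay within 34.3 and 71.4 CPM. A row named Pcna-ps2, by its name a pseudogene of Pcna, had 29.8 to 89.1 CPM, and how the authors' counting split reads between them is not known here. Fen1, the flap nuclease, had 15.1, 13.0 and 54.2 CPM in metastatic c-Myc-high libraries, against 2.17, 1.42 and 16.4 CPM in metastatic c-Myc-low ones. Fen1 had 18.2 and 2.80 CPM in primary c-Myc-high and 7.96 and 9.25 CPM in primary c-Myc-low libraries. Fen1 overlapped between the c-Myc classes in metastases, with a log2 fold change of 2.04 (SE 1.17, adjusted p = 1, edgeR). Pola1, the catalytic subunit of polymerase alpha, was at 78.5 CPM in primary c-Myc-high replicate 1 and at 9.37 to 29.3 CPM elsewhere.

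For deoxynucleotides, Rrm2, the small subunit of ribonucleotide reductase, had 17.2, 30.4 and 41.9 CPM in metastatic c-Myc-high and 13.4, 16.9 and 19.9 CPM in metastatic c-Myc-low libraries. Rrm2 had 73.2 and 36.4 CPM in primary c-Myc-high and 33.6 and 40.7 CPM in primary c-Myc-low libraries. Its metastatic c-Myc-low values all lay below its primary ones. Tk1, the thymidine kinase of the salvage route, had 14.3, 46.9 and 27.1 CPM in metastatic c-Myc-high libraries, against 11.04 and 9.33 CPM in primary c-Myc-high ones. Tk1 had 18.2, 23.2 and 28.1 CPM in metastatic c-Myc-low libraries, against 31.1 and 15.9 CPM in primary c-Myc-low ones. In CPM summed over its rows, the c-Myc-high groups did not overlap and the c-Myc-low groups did. Only 7.22% of Tk1 counts stood on its protein-coding row, and most stood on retained-intron rows. The coding row held 0, 56.7 and 2.91 counts in metastatic c-Myc-high libraries, against 24.3 and 1.33 in primary c-Myc-high ones. On that row the c-Myc-high groups overlapped. Tyms, thymidylate synthase, was at 100.3 CPM in primary c-Myc-high replicate 1 and at 0.933 CPM, 1 count, in replicate 2, while the other 8 libraries lay between 5.70 and 18.4 CPM. Rrm1, the large reductase subunit, was at 144 CPM in primary c-Myc-high replicate 1 and at 27.5 to 59.5 CPM elsewhere.

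The pyrimidine genes gave low counts. Cad, which carries the first steps of the pathway, had 12.1, 22.8 and 11.2 CPM in metastatic c-Myc-high, 16.1, 18.5 and 21.9 CPM in metastatic c-Myc-low, 31.4 and 7.46 CPM in primary c-Myc-high and 26.3 and 12.7 CPM in primary c-Myc-low libraries. All 4 groups overlapped, and 11 of its 12 transcript rows are not listed in GENCODE M21. Dhodh, the mitochondrial enzyme of the pathway, had 4.31, 22.01 and 4.602 CPM in metastatic c-Myc-high and 4.34, 7.72 and 19.9 CPM in metastatic c-Myc-low libraries. Dhodh had 4.56 and 0 CPM in primary c-Myc-high and 8.56 and 9.54 CPM in primary c-Myc-low libraries. Umps, which makes UMP, was at 11.8 to 32.6 CPM in 8 libraries and at 0 and 0.933 CPM in metastatic c-Myc-high replicate 3 and primary c-Myc-high replicate 2. A row typed as a target of nonsense-mediated decay held 88.5% of Umps counts over all libraries, and its protein-coding row 11.5%.

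Of the purine genes, Ppat and Paics were higher, in CPM summed over rows, in every metastatic than in every primary c-Myc-high library. Ppat, the first committed enzyme of the pathway, had 23.7, 14.7 and 9.20 CPM in metastatic c-Myc-high libraries, against 2.40 and 1.87 CPM in primary c-Myc-high ones. Ppat had 14.8, 17.4 and 7.35 CPM in metastatic c-Myc-low and 11.5 and 8.09 CPM in primary c-Myc-low libraries. The primary c-Myc-high pair was the lowest of all 10, at 10.3 and 1.66 estimated counts. The log2 fold change in c-Myc-high cells was 2.86 (SE 1.11, 95% interval 0.44 to 5.27, adjusted p = 0.139, edgeR). A retained-intron row held 47.1% of Ppat counts over all libraries and its protein-coding row 40.95%. The coding row held 0 counts in metastatic c-Myc-high replicate 3, against 0 and 0.7 in primary c-Myc-high libraries. Metastatic c-Myc-high replicates 1 and 2 held at least 21.8. On that row the c-Myc-high groups therefore overlapped.

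Paics, a later enzyme of the same pathway, had 47.1, 125 and 73.6 CPM in metastatic c-Myc-high libraries, against 13.4 and 31.7 CPM in primary c-Myc-high ones. Paics had 102, 87.2 and 123 CPM in metastatic c-Myc-low and 42.8 and 110.1 CPM in primary c-Myc-low libraries. The c-Myc-low groups overlapped. The log2 fold change in c-Myc-high cells was 1.87 (SE 0.796, 95% interval 0.14 to 3.61, adjusted p = 0.167, edgeR). Ppat and Paics lie on opposite strands of chromosome 5 with overlapping first ends. Their RefSeq start sites, in the windows printed above, are 276 bases apart, so reads in the overlap cannot be given to one gene without strand.

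Impdh1, the inosine monophosphate dehydrogenase that opens the branch to GMP, had 24.2, 45.9 and 3.58 CPM in metastatic c-Myc-high and 18.2, 16.3 and 16.0 CPM in metastatic c-Myc-low libraries. Impdh1 had 139 and 6.53 CPM in primary c-Myc-high libraries, against 11.2 and 10.7 CPM in primary c-Myc-low ones. Its highest value was in primary c-Myc-high replicate 1, and the other primary c-Myc-high library lay below both c-Myc-low ones. Its paralogue Impdh2 was also highest in that library, at 58.1 CPM. Per length, in RPKM, Impdh1 over Impdh2 ranged from 0.584 to 4.61 over the 10 libraries, with ratios of 0.769 and 0.584 in primary c-Myc-low cells. Gart, which carries several steps between those of Ppat and Paics, was highest in primary c-Myc-high replicate 2, at 78.4 CPM. Atic, which completes IMP, was highest in primary c-Myc-high replicate 1, at 78.7 CPM.

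In the serine pathway, the 3 enzymes that turn 3-phosphoglycerate into serine were far from equal. Phgdh, the first and often rate-setting enzyme, had at most 9.47 estimated counts in any library and had the lowest mean of the 4 group means per length, 0.190 RPKM. Psat1, the second enzyme, had 43.1 to 1169.9 estimated counts and a mean of 11.9 RPKM, which ranked 2 in that order and between 1 and 4 in the single groups. Psat1 had 85.9, 45.04 and 103 CPM in metastatic c-Myc-high, 67.1, 67.0 and 42.1 CPM in metastatic c-Myc-low, 94.6 and 40.1 CPM in primary c-Myc-high and 141 and 164 CPM in primary c-Myc-low libraries. In CPM both primary c-Myc-low libraries were above all 8 others. In RPKM Psat1 was at 15.0 ± 19.2 in primary c-Myc-high (SD, n = 2) and 17.0 ± 7.66 in primary c-Myc-low cells (n = 2). Those primary groups overlapped. In c-Myc-low cells its log2 fold change, metastatic over primary, was -1.38 (SE 0.672, 95% interval -2.84 to 0.09, adjusted p = 0.373, edgeR), and limma-voom called it (adjusted p = 0.0135).

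Psph, the last enzyme of that route, had 8.07, 10.6 and 1.53 CPM in metastatic c-Myc-high and 14.0, 8.11 and 10.8 CPM in metastatic c-Myc-low libraries. Psph had 6.00 and 1.87 CPM in primary c-Myc-high libraries, against 32.9 and 21.1 CPM in primary c-Myc-low ones. In CPM, like Psat1, Psph was above every other library in the pair of primary c-Myc-low libraries. In RPKM Psph was at 6.66 ± 4.69 in primary c-Myc-low (SD, n = 2) and 2.96 ± 1.25 in metastatic c-Myc-low cells (n = 3). Those c-Myc-low groups overlapped. The log2 fold change in primary tumours, c-Myc-high over c-Myc-low, was -2.71 (SE 1.23, 95% interval -5.39 to -0.03, adjusted p = 0.427, edgeR). Psph overlaps Cct6a, and Psat1 overlaps Gm3329, on the other strand.

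The one-carbon genes split between cytosol and mitochondria. Shmt1, the cytosolic serine hydroxymethyltransferase, had 19.6, 20.4 and 63.9 CPM in metastatic c-Myc-high libraries, against 5.10, 12.5 and 13.1 CPM in metastatic c-Myc-low ones. In primary tumours Shmt1 had 12.5 and 6.53 CPM in c-Myc-high libraries, against 20.5 and 39.3 CPM in c-Myc-low ones. In CPM it was therefore higher in every c-Myc-high library in metastases and lower in every one in primary tumours, and no other member was without overlap in the metastatic comparison (3.28% of all genes were higher and 7.65% lower that way). The log2 fold change, c-Myc-high over c-Myc-low, was 1.76 in metastases (SE 0.836, adjusted p = 1, edgeR). The difference between the sites was 3.38 (SE 1.33, 95% interval 0.49 to 6.28), which did not pass (adjusted p = 0.724, edgeR). In RPKM the primary values of Shmt1 overlapped, at 3.78 and 0.181 in c-Myc-high and 2.04 and 1.75 in c-Myc-low libraries. In primary tumours 5 members were higher and 13 lower without overlap, beside 10.8% and 29.8% of all genes.

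Shmt2, the mitochondrial form, had 27.7, 47.5 and 24.0 CPM in metastatic c-Myc-high and 21.4, 17.1 and 37.5 CPM in metastatic c-Myc-low libraries. Shmt2 had 232 and 1.87 CPM in primary c-Myc-high libraries, against 40.3 and 40.5 CPM in primary c-Myc-low ones. The pair of primary c-Myc-high libraries thus held its highest and its lowest value. In RPKM, Shmt2 over Shmt1 was 1.08, 2.90 and 0.183 in metastatic c-Myc-high, 5.19, 1.71 and 3.01 in metastatic c-Myc-low, 5.90 and 0.223 in primary c-Myc-high and 2.44 and 1.27 in primary c-Myc-low libraries. Shmt1 exceeded Shmt2 in metastatic c-Myc-high replicate 3 and primary c-Myc-high replicate 2, where nearly all Lig1 counts stood on unlisted rows. Shmt2 overlaps Ndufa4l2 on the other strand.

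Mthfd1l, the mitochondrial formate-releasing synthetase, had 41.7, 35.1 and 113 CPM in metastatic c-Myc-high and 49.3, 52.9 and 39.2 CPM in metastatic c-Myc-low libraries. Mthfd1l had 149 and 10.3 CPM in primary c-Myc-high and 9.53 and 14.2 CPM in primary c-Myc-low libraries. All 3 metastatic c-Myc-low values were above both primary c-Myc-low values. That log2 fold change was 1.99 (SE 1.04, 95% interval -0.27 to 4.26, adjusted p = 0.422, edgeR), and limma-voom called it (adjusted p = 0.0106). In primary tumours the log2 fold change, c-Myc-high over c-Myc-low, was 2.76 (SE 1.13, adjusted p = 0.419, edgeR), and it was -0.06 without primary c-Myc-high replicate 1. Mthfd2, the mitochondrial dehydrogenase, was highest in the same library, at 47.8 CPM, and lay between 0 and 26.3 CPM in the others. Mthfd1, the cytosolic enzyme, lay between 0.933 and 17.9 CPM.

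The highest and lowest values of many members fell in a few libraries. Primary c-Myc-high replicate 1 held the highest value of 15 of the 37 genes (40.5%, beside 19.0% of all genes tested), among them Cdc6, Tyms, Rrm1, Rrm2, Pola1, Shmt2, Mthfd2, Mthfd1l, Impdh1 and Impdh2. Primary c-Myc-high replicate 2 held the lowest value of 14 (37.8%, beside 18.2% of all genes). A lowest value shared by several libraries was not counted for any of them. Such ties were more frequent among all genes than among members, which lowers the 18.2%, so these shares are not directly comparable. Metastatic c-Myc-high replicate 2 held the highest value of 9 (24.3%, beside 13.95%), including Mcm4, Mcm5, Mcm6, Cdt1 and E2f1. No metastatic c-Myc-low library held the highest value of any member, beside 7.89%, 4.81% and 5.12% of all genes. Between the pair of primary c-Myc-high libraries, the median fold between higher and lower value was 4.10 over 34 genes with counts in both, and 17 differed by more than a factor of 4. Between the pair of primary c-Myc-low libraries it was 1.42 over 37 genes, and 1 differed by more than 4.

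In SD of log2(CPM + 1), the median over the 37 genes was 0.899 in metastatic c-Myc-high, 0.381 in metastatic c-Myc-low, 1.58 in primary c-Myc-high and 0.321 in primary c-Myc-low cells. The same medians over all genes tested were 1.11, 0.505, 1.01 and 0.365. The spread of c-Myc-high cells exceeded that of the c-Myc-low class for 32 of 37 genes in metastases (86.5%, beside 81.4% of all genes) and for 28 of 37 in primary tumours (75.7%, beside 70.7%).

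Mki67 and the sum of G2/M genes, markers of dividing cells, had their highest and lowest values in the pair of primary c-Myc-high libraries. Top2a was also highest in replicate 1 of that pair, at 746 CPM. In replicate 2 Top2a was at 135 CPM, above the 65.7 CPM of metastatic c-Myc-low replicate 1. In metastatic c-Myc-high replicate 2 the G2/M sum was 1126 CPM, below the 1530 CPM of replicate 3. Mki67 was at 3442 CPM in primary c-Myc-high replicate 1 and at 149 CPM in replicate 2, and at 295 to 800.4 CPM in the other 8, and 16 G2/M genes summed to 5294 and 538 CPM in that pair, beside 579 to 1530 CPM elsewhere. In metastatic c-Myc-high replicate 2, leukocyte genes summed to 5466 CPM and B cell genes to 4171 CPM, the highest of the 10 libraries. In primary c-Myc-high replicate 2, fibroblast genes summed to 5166 CPM, beside 28.8 to 661.8 CPM elsewhere. None of the 16 G2/M genes was called by edgeR in any comparison, with at most 2 in a comparison at an unadjusted p under 0.05 and at most 1 called by DESeq2 and 2 by limma-voom. The part of these cells in the spread was not tested.

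**Figure D5:**
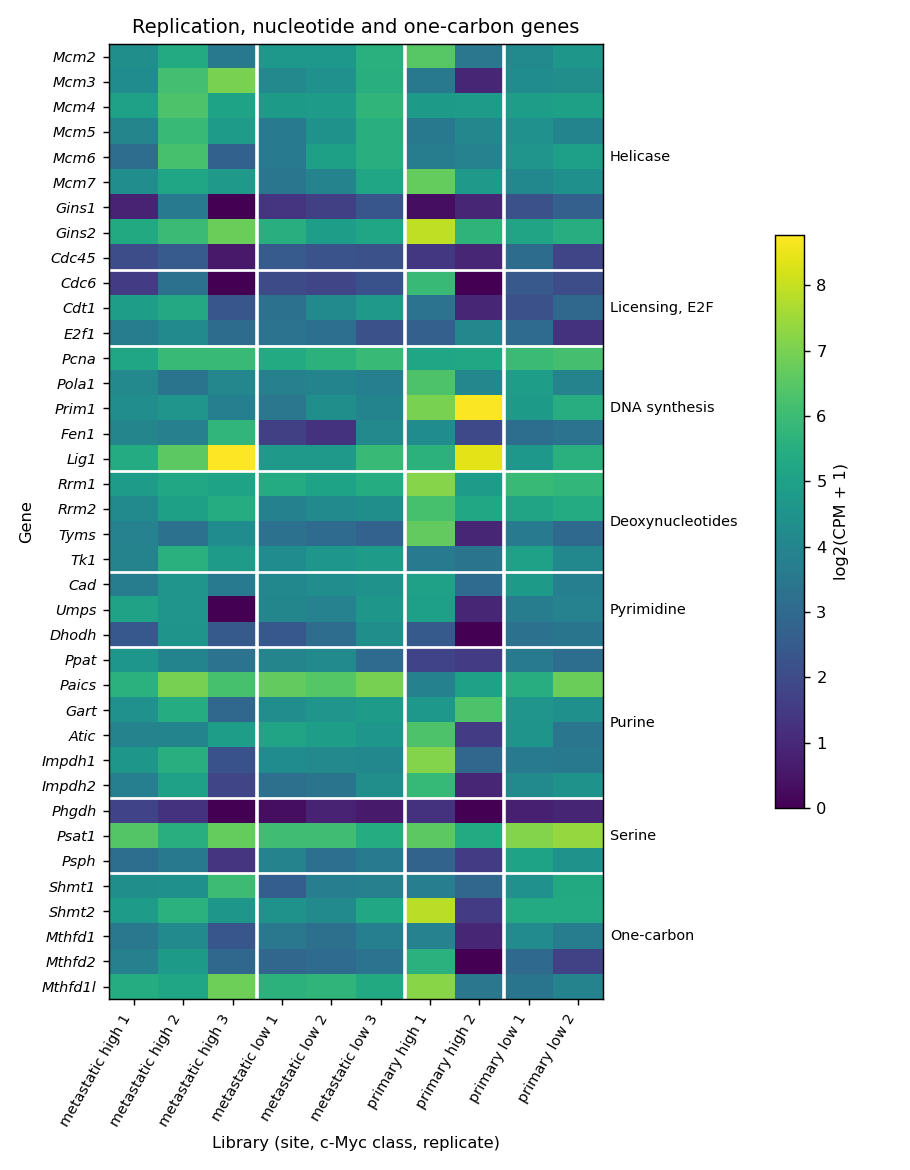
Levels of the 38 genes as log2(CPM + 1), colour, in the 10 libraries (columns, grouped by site and c-Myc class) with genes in rows by role. The c-Myc-low columns are more even than the c-Myc-high ones in most rows, with exceptions such as Fen1 in metastatic c-Myc-low libraries (SD 1.54). Primary c-Myc-high replicates 1 and 2 differ in many rows, such as Tyms at 100.3 and 0.933 CPM.

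A list of 86 other genes of these pathways was set beside the members, with 39 of replication, 25 of nucleotide synthesis and 22 of one-carbon metabolism, all of them tested. Averaged over the c-Myc classes 2 rose and 1 fell in metastatic cells by edgeR (8.13% and 5.65% of all genes), while DESeq2 called 8 higher and 5 lower (15.4% and 8.38%) and limma-voom 2 and 2 (4.92% and 6.37%). In each of the other comparisons edgeR called 0. In c-Myc-high cells 16 were higher and 5 lower in metastases at an unadjusted p under 0.05 (16.3% and 9.96% of all genes), DESeq2 called 13 and 3 (12.1% and 7.53%) and limma-voom 0. In c-Myc-low cells 1 was higher and 2 lower at that level (9.12% and 6.03%), DESeq2 called 1 and 1 (6.21% and 3.95%) and limma-voom 3 and 4 (13.9% and 9.6%). Between the c-Myc classes limma-voom called 0 at either site. In metastases 2 were higher and 0 lower at an unadjusted p under 0.05 (3.05% and 1.76%), and DESeq2 called 1 and 0 (0.422% and 0.0893%). In primary tumours 3 were higher and 9 lower at that level (4.29% and 7.33%), and DESeq2 called 1 and 3 (1.2% and 1.22%). Ctps2, a CTP synthetase, had 34.7, 56.5 and 6.14 CPM in metastatic c-Myc-high and 24.0, 30.4 and 39.2 CPM in metastatic c-Myc-low libraries. It had 1.68 and 2.80 CPM in primary c-Myc-high and 5.67 and 10.1 CPM in primary c-Myc-low libraries, and its log2 fold change was 2.94 (SE 0.782, adjusted p = 0.0285, edgeR). Only metastatic c-Myc-high replicate 3 lay among the primary values of Ctps2.

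Adssl1, an adenylosuccinate synthase of the AMP branch, had 69.7, 12.8 and 0.511 CPM in metastatic c-Myc-high and 11.6, 9.78 and 17.1 CPM in metastatic c-Myc-low libraries, against 0.240 and 0 CPM in primary c-Myc-high and 0 in both primary c-Myc-low libraries. It rose by edgeR's test (adjusted p = 0.00996), and its fold is not given because the primary libraries held at most 1 count. Cbs, which turns homocysteine into cystathionine and so draws it out of the methionine cycle, had 0.538, 0 and 0 CPM in metastatic c-Myc-high and 4.59, 0.257 and 0 CPM in metastatic c-Myc-low libraries. Cbs had 2.40 and 111.0 CPM in primary c-Myc-high and 48.5 and 68.2 CPM in primary c-Myc-low libraries, and it fell in metastatic cells (log2 fold change -6.57, SE 1.39, adjusted p = 0.0103, edgeR). Metastatic c-Myc-low replicate 1 exceeded primary c-Myc-high replicate 1 in Cbs, and all other metastatic libraries were below all primary ones.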

How the data were processed

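RNA of 10 libraries of sorted mouse melanoma cells was sequenced. The authors deposited 1 table of 92214 transcript rows with estimated counts and RPKM for each library. Bowtie2, limma and the genome build mm10 are named, with no role, in the submitters' processing notes. The program that assigned reads to transcripts, the annotation release and the strandedness were not given in the sources used here. The authors' RPKM values rest on a read total other than the sum of their deposited estimated counts: relative to the deepest library it spans 0.646 to 1.01, against 0.234 to 1 for the counts.

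Estimated counts were summed by gene name and rounded, and genes were filtered with edgeR's default (filterByExpr by group). The main test was edgeR 4.0.16 (R 4.3.3) in quasi-likelihood mode with TMM scaling, 1 fit over the 4 groups and Benjamini-Hochberg adjustment over 16805 genes. Genes called had an adjusted p under 0.05. Alternatives were DESeq2 1.42.0, limma 3.58.1 (voom, and limma-trend on log2(RPKM + 1) and log2(RPKM + 0.1)), RLE scaling, no filter, the highest transcript row per gene, the compared groups alone, the replicate number as a block and each library left out. Protein-coding rows alone, the fit without both salivary-rich libraries and the fit on the 8 deepest libraries were added after seeing the data. Transcript types and positions came from GENCODE M21. The fit was tested on simulated counts. The precision of counts is limited by depth, where 3 counts correspond to 0.438 to 1.87 CPM before TMM scaling, and this covers counting error only.

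The members and lists were chosen with earlier results of these data known. Members given in every library were those called, the 4 with the lowest p in each comparison and, in each role, the 2 with the highest mean RPKM. Of other pathway genes, those called and the 2 with the lowest p in each comparison were named.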

Additional observations from a re-analysis of the deposited data

Results flagged for a closer look

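Shmt1, the cytosolic serine hydroxymethyltransferase, was set apart because the c-Myc difference in CPM ran in opposite directions at the sites in all libraries. In metastases it had 19.6, 20.4 and 63.9 CPM in c-Myc-high libraries, all above the 5.10, 12.5 and 13.1 CPM of c-Myc-low libraries. In primary tumours it had 12.5 and 6.53 CPM in c-Myc-high libraries, both below the 20.5 and 39.3 CPM of c-Myc-low libraries. The difference between the sites was 3.38 on the log2 scale (SE 1.33), which did not pass after adjustment over all genes (adjusted p = 0.724, edgeR). Over 21 alternatives it ranged from 1.12, on log2(RPKM + 1), to 4.71, with the highest transcript row, and none passed. In RPKM the primary values overlapped, at 3.78 and 0.181 in c-Myc-high and 2.04 and 1.75 in c-Myc-low libraries.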

How the results depend on the processing

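The number of members called metastatic over primary in c-Myc-high cells was 1 as reported. It was 3 with DESeq2 and 0 with limma-voom, with the highest transcript row per gene, with log2(RPKM + 1), with log2(RPKM + 0.1), with only the 2 groups compared and without both salivary-rich libraries, and 8 in the 8 deepest libraries. Leaving out 1 library gave 0 to 2. In c-Myc-low cells it was 0 as reported, 4 with limma-voom and 2 (Mthfd1l and Psat1) with only the 2 groups compared. In the mean of both classes it was 1 as reported, 3 with DESeq2, 0 on either RPKM scale and 8 in the 8 deepest libraries, and 1 to 3 with 1 library left out. For c-Myc-high over c-Myc-low, 0 as reported in primary tumours became 1 with DESeq2 and 4 in the 8 deepest libraries, and 0 in the mean of both sites became 2 with DESeq2 and 1 (Impdh1) in the 8 deepest libraries. In metastases (23 alternatives) and for the difference between sites (21) it stayed 0. Mthfd1l in primary tumours, c-Myc-high over c-Myc-low, was the value that reversed among the genes with the lowest p in each comparison, with -0.064 (without primary c-Myc-high replicate 1) to 3.56 (without primary c-Myc-high replicate 2). The cause of these changes was not tested.

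With the replicate number as a block, the count of members called in c-Myc-high cells was 0, with Prim1 at an adjusted p of 0.0694 (edgeR), and Prim1 in the mean of both classes had an adjusted p of 0.0475. Deviations from the group means correlated at 0.09, -0.20 and -0.33 between same-numbered libraries in metastases. Higher values joined other numbers there. They were 0.58 for c-Myc-high replicate 2 with c-Myc-low replicate 3, 0.38 for 3 with 1 and 0.25 for 1 with 2. In primary tumours the value was 0.08, but deviations within a pair of libraries mirror each other, so it cannot show pairing. Whether libraries share an animal or a batch is therefore not known.

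Over all genes, calls between the sites ranged over the alternatives from 0 to 3304 in c-Myc-high cells (667 as reported), 127 to 3949 in c-Myc-low cells (355) and 722 to 4188 in their mean (2316). Between the c-Myc classes they ranged from 0 to 86 in metastases, 0 to 1135 in primary tumours and 0 to 511 in the mean, and for the difference between sites from 0 to 85 (0 as reported in each). RLE in place of TMM scaling moved the median of all genes by -0.10 in the c-Myc-high site comparison, 0.12 in the primary c-Myc comparison and 0.14 in the mean, and turned the sign of Mcm4 in the primary c-Myc comparison, Dhodh in the metastatic one, Mcm3 and Mcm5 in their mean, and Pcna and Lig1 in the mean site comparison. With 2 or 3 libraries a group and a coefficient of variation of 0.876, most intervals span more than a factor of 4, and members under 3 counts are not measurable in the shallowest library.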

Other observations

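Among the 86 other genes of these pathways, those with the lowest p-values in each comparison, beside the called ones, were Rpa3, Rfc4, Rfc5, Gins3, Ggh and Uck2, and edgeR called none of these 6. Rpa3, Gins3 and Rfc4, subunits of the single-strand binding complex, the GINS complex and the clamp loader, were listed at 0 in both primary c-Myc-high libraries and had 4.33 to 15.2 CPM in primary c-Myc-low ones. Rfc5, another clamp loader subunit, had 154 and 91.4 CPM in primary c-Myc-high libraries, against 19.9 and 20.2 CPM in primary c-Myc-low ones. Rfc5 had 29.1, 19.4 and 55.2 CPM in metastatic c-Myc-high libraries, against 14.8, 18.7 and 15.8 CPM in metastatic c-Myc-low ones. Subunits of 1 complex thus lay at 0 and far above the other libraries in the same pair.

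Uck2, a uridine-cytidine kinase of pyrimidine salvage, had 22.3, 25.7 and 20.5 CPM in metastatic c-Myc-high libraries, against 4.34, 2.70 and 9.19 CPM in metastatic c-Myc-low ones. The groups did not overlap, with a log2 fold change of 2.08 (SE 0.808, adjusted p = 1, edgeR). In primary tumours Uck2 had 49.2 and 26.1 CPM in c-Myc-high libraries, against 31.8 and 14.4 CPM in c-Myc-low ones, which overlapped. Ggh, which trims folate polyglutamates, had 962, 15.7 and 171 CPM in metastatic c-Myc-high libraries, against 15.1, 11.6 and 10.1 CPM in metastatic c-Myc-low ones (adjusted p = 0.786, edgeR). Its 2 highest values fell in the libraries with 203330 and 61465 CPM of salivary gland transcripts, whose part in this was not tested.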
